A study of Mus musculus with 6 samples.

Results

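Hepatocytes, the main cells of the liver, make most of the proteins of blood plasma and run the liver's gluconeogenesis, urea synthesis and drug metabolism. The 36 genes described here encode such products: plasma carriers, apolipoproteins, clotting proteins, protease inhibitors, urinary proteins, the iron hormone hepcidin and metabolic enzymes. They were followed in RNA of sorted liver endothelial cells, the cells that line the hepatic vessels and sinusoids. The genes were taken by symbol from the deposited table of 39179 genes, and all 36 were found. A filter of at least 1 CPM (reads scaled by library size) in at least 3 libraries left 12980 genes for testing, with 35 of the 36. Mup20, a major urinary protein gene, did not reach 1 CPM in any library.

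The livers were those of male mice of the wild-type strain 129S6/SvEvTac, which ate a purified diet of the AIN-93G type from the age of 3 weeks for 4 weeks and were sampled at 7 weeks. Food of the control_iron group held 37 ppm iron as ferric citrate, and food of the high_iron group held 10000 ppm carbonyl iron. The 6 libraries were 3 biological replicates per diet. Sorting kept single cells with CD31 and CD146 on their surface and without CD45, lineage markers, MHC class II or CD64, and the labels name no hepatocyte marker in this gate. Whether each library is 1 mouse or a pool of several is not given in the sources used here. Reads in genes numbered 12963510 to 21663543 per library, so that 3 reads, taken as the floor, equal 0.139 to 0.231 CPM. The fewest reads of a tested gene of the set in any library were 10. Endothelial markers were high in every library, as the label of the sort says: 18 such genes, among them Stab2 and Cdh5, summed to 39332 to 47132 CPM. Mcam, the gene of the sorting marker CD146, was the lowest of the 18, at 7.49 to 27.5 CPM, while Pecam1, the gene of CD31, stood at 549 to 737 CPM.

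In the liver, iron load raises the ligand BMP6 in endothelial cells, BMP6 acts on receptors of the hepatocyte, and the hepatocyte answers by transcribing Hamp. Hepcidin, the product of Hamp, lowers iron entry into plasma. The fibrinogen genes Fga, Fgb and Fgg lie beside each other in the genome and are acute-phase genes, induced in hepatocytes through STAT3. HNF1 is a transcription factor that many plasma protein promoters share. The results below turn on Alb as the reference message, on Hamp, and on the fibrinogen genes. For that reason the 250 bases before the start of each of these 5 genes are shown 5′ to 3′ on the gene's strand, from RefSeq on GRCm38.p6. GENCODE places some starts elsewhere, and its start of Fga, given further on, lies inside the Fga window shown. Capitals mark a match to GTTAAT (an HNF1 half-site), TTCNNNGAA (a STAT site) or GGCGCC (the core of the BMP-responsive element) on either strand. No match overlaps another.
Alb, chr5:90460620-90460869, plus strand: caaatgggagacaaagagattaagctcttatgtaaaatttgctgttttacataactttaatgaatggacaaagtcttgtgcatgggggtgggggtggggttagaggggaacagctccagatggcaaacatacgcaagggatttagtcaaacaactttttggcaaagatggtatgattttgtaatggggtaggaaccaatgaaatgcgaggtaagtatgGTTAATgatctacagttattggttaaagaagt
Hamp, chr7:30944030-30944279, minus strand: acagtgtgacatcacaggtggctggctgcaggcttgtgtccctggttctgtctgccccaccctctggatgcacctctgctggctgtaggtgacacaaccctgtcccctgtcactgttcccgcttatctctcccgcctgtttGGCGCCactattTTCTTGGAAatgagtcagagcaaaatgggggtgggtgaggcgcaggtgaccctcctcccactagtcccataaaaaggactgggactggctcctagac
Fga, chr3:83025903-83026152, plus strand: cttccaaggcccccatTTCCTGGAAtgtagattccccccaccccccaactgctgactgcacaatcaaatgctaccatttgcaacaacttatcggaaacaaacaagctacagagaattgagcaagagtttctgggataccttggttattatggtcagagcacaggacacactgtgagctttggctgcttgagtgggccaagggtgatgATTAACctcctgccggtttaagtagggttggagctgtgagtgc
Fgb, chr3:83049864-83050113, minus strand: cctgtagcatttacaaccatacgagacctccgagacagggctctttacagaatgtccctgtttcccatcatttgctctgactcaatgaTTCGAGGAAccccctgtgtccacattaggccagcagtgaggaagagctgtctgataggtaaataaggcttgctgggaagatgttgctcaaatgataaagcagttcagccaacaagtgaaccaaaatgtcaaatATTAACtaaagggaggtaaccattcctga
Fgg, chr3:83007474-83007723, plus strand: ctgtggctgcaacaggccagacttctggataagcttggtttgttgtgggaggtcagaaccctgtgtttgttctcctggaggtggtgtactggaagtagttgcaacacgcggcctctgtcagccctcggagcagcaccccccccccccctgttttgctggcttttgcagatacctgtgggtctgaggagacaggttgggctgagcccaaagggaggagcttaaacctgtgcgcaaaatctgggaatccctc

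In this window Alb held the HNF1 half-site GTTAAT, 32 to 27 bases before its start. Hamp held the BMP-responsive core GGCGCC at 109 to 104 bases before its start and the STAT match TTCTTGGAA at 97 to 89. Fga held the STAT match TTCCTGGAA at 234 to 226 and the half-site, read as ATTAAC, at 43 to 38. Fgb held TTCGAGGAA at 162 to 154 and ATTAAC at 29 to 24, and Fgg held none of these letters. RefSeq promoters were found for 27 of the 36 genes, with 29 promoters. Of these, 10 held the HNF1 half-site (34.5%), against 6.43% of all 32851 promoters of the table. The STAT letters were in 4, those of Fga, Fgb, Hamp and Itih4 (13.8%, against 7.02% of all). The BMP core was in those of Hamp and Ass1 (6.9%, against 9.59%), and a further motif, TATAAA, was in 7 (24.1%, against 12.4%). A match of letters is no measure of binding.

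All 36 transcripts were detected in all 6 libraries, and their amount differed more between libraries than between diets. Their summed level was 560.3, 2264 and 1395 CPM in control_iron replicates 1 to 3 and 1216, 2336 and 1935 CPM in high_iron replicates 1 to 3. Control_iron 1 was the lowest library and high_iron 2 the highest, 4.17 times apart, and the groups overlapped. Group means were 1406 ± 852 and 1829 ± 568 CPM (SD, n = 3 each), a ratio of 1.30, and the difference between them is smaller than the spread between replicates. On the log2 scale this ratio was 0.38, and it was 0.00 without control_iron 1 and 0.90 without control_iron 2. In bulk RNA, fewer hepatocytes and less RNA per hepatocyte cannot be told apart.

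Control_iron 1 was the lowest library for 31 of the 36 genes, whereas it was the lowest for 17.6% of all genes tested. The median gene of the set stood there at 0.359 of the mean of the other 2 control libraries. The exceptions were Cyp2e1, Pck1 and Tat, lowest in control_iron 3, and F2 and Mup20, lowest in high_iron 1. High_iron 2 was the highest library for 19 genes and control_iron 2 for 11. Log2 fold changes between the diets are therefore given below with and without control_iron 1 by gene or by role.

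**Figure D1:**
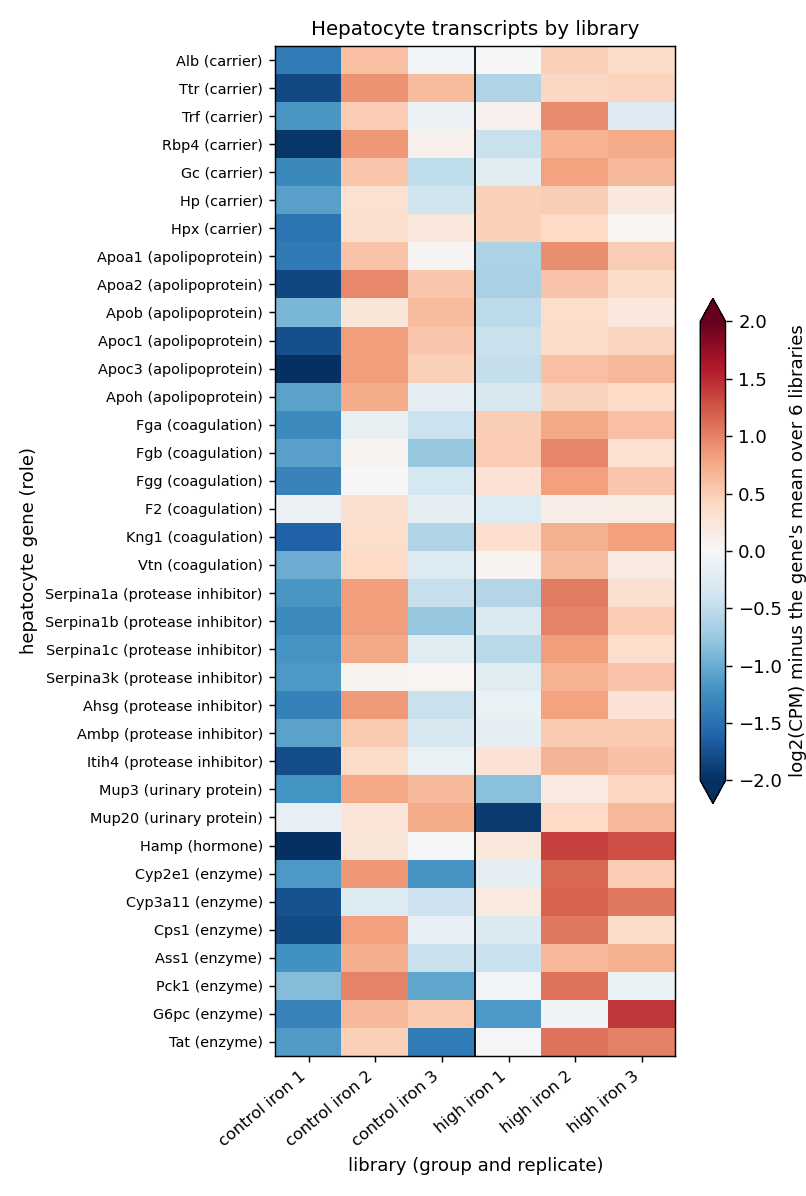
Each row is a gene with its role and each column a library; the colour gives log2(CPM) minus the gene's mean over the 6 libraries, from blue (lower) to red (higher), with the scale ending at 2 in either direction. Control_iron 1 is blue in nearly every row and was the lowest library for 31 of 36 genes, and the row of F2 is nearly white.

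Between the diets, 0 of the 35 tested genes passed limma's test at an adjusted p under 0.05 in either direction. Of all genes tested, 0.832% were called higher in the high_iron group and 0.193% were called lower. At an unadjusted p under 0.05 there were 8 of the 35 (22.9%), against 12.1% of all genes tested, and the lowest adjusted p was 0.073, that of Fga (limma, Benjamini-Hochberg over 12980 genes). EdgeR's quasi-likelihood test on the recovered reads also called 0. DESeq2 called 3, Fga, Fgb and Fgg, all higher, where it called 2.53% of all genes higher. Values of the high_iron libraries lay above all control_iron libraries for 4 genes, Fga, Fgb, Fgg and Cyp3a11, as they did for 9.46% of all genes. For none of the 35 did they lie below, as they did for 8.44% of all genes. That share of 4 in 35 is close to the background.

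The log2 fold change, high_iron over control_iron on log2(CPM + 1), was above 0 for 34 of the 35 genes, with a median of 0.57. Over all genes tested the median was -0.003 and 49.5% were above 0. Without control_iron 1 the median was 0.11 and 23 of 35 were above 0. Leaving out control_iron 2, the control library with the most of this RNA, gave a median of 1.04. Since 1 library sets so much of the median, it describes these 6 libraries.

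**Figure D2:**
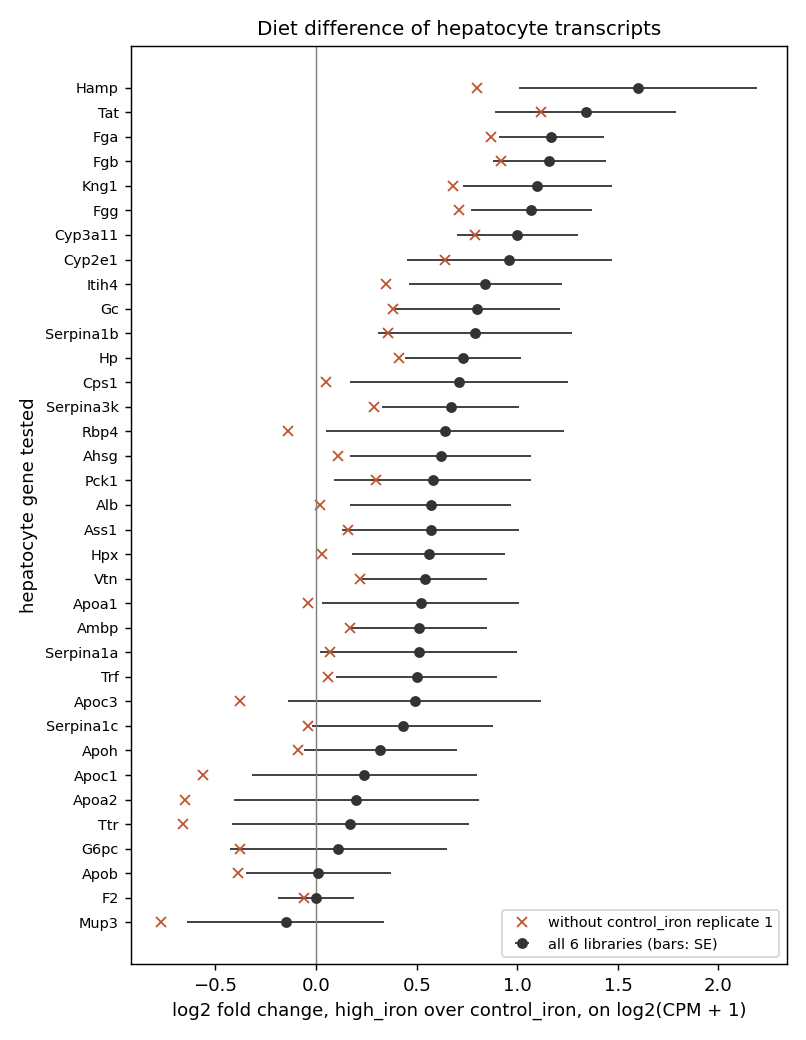
Log2 fold change of each of the 35 tested genes, high_iron over control_iron on log2(CPM + 1): black points with SE bars use all 6 libraries, red crosses leave out control_iron replicate 1. The crosses lie to the left of the points in every row, and the genes range from Mup3 (-0.15) to Hamp (1.60).

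Among the 7 plasma carriers, albumin (Alb) was the most abundant per length, with a mean of 99.0 RPKM. Alb stood at 69.9, 278 and 177 CPM in control_iron 1 to 3 and at 184, 257 and 239 CPM in high_iron 1 to 3. The highest value was in a control library, so the groups overlapped. The log2 fold change of Alb was 0.57 ± 0.40 (SE), and 0.02 without control_iron 1.

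Of the carriers, 3 handle iron or haem: transferrin (Trf) carries plasma iron, haptoglobin (Hp) binds free haemoglobin and haemopexin (Hpx) binds haem. Trf stood at 21.2, 67.2 and 43.7 CPM in controls and at 50.5, 91.1 and 39.4 CPM on high iron. Hp stood at 7.53, 19.8 and 12.2 CPM in controls and at 22.3, 22.5 and 18.5 CPM on high iron. Hpx stood at 6.29, 21.5 and 20.3 CPM in controls and at 23.9, 22.7 and 17.8 CPM on high iron. For all 3 the groups overlapped; Hp came nearest to parting, since only control_iron 2 reached into the high-iron range (log2 fold change 0.73 ± 0.29, adjusted p = 0.37 by limma). The log2 fold changes of Trf, Hp and Hpx were 0.50, 0.73 and 0.56, and without control_iron 1 they were 0.06, 0.41 and 0.03. For Trf, 63.5% of the exon length lies under Gm20425, a gene model on the same strand that shares its exons, so its reads may be divided between the 2 and its level is uncertain.

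Gc, the vitamin D-binding protein, stood at 17.0, 61.1 and 29.0 CPM in controls and at 35.6, 72.6 and 65.2 CPM on high iron. Control_iron 2 again lay inside the high-iron range, and the log2 fold change of 0.80 was 0.38 without control_iron 1. The retinol carrier Rbp4 and transthyretin (Ttr), which carries thyroxine and binds Rbp4, had log2 fold changes of 0.64 and 0.17. Without control_iron 1 these were -0.14 and -0.66.

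The 6 apolipoproteins are the protein parts of the particles that carry lipid in plasma. Apoa2, a protein of high-density lipoprotein, had the highest level per length of all 36 genes, 345 RPKM, followed by Apoc1 at 152 RPKM. Apoa2 stood at 47.1, 324 and 243 CPM in controls and at 106, 247 and 218 CPM on high iron. Both its highest and its lowest library were controls. Log2 fold changes of the 6 ranged from 0.01 (Apob, the scaffold of very low-density lipoprotein) to 0.52 (Apoa1, the main protein of high-density lipoprotein). Without control_iron 1, 0 of the 6 were above 0 and their median was -0.39. Summed, the apolipoproteins gave 114, 646 and 491 CPM in controls and 244, 550.4 and 494 CPM on high iron.

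The 3 fibrinogen chains, which join into the precursor of fibrin, had the lowest adjusted p of the set by limma. Cyp3a11, the other gene whose groups did not overlap, had a larger ratio of means (2.93). Fga lies at chr3:83026076-83033627 (GRCm38, plus strand), with Fgg at chr3:83007724-83015049 and Fgb at chr3:83040141-83049863 (minus strand). Fga stood at 8.05, 17.6 and 14.4 CPM in controls and at 27.4, 33.0 and 29.4 CPM on high iron. Every high-iron library exceeded every control.

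Fgb, the chain with the highest level per length (24.3 RPKM), stood at 16.8, 36.7 and 21 CPM in controls and at 50.7, 69.6 and 43.9 CPM on high iron. Fgg stood at 11.7, 29.8 and 23.1 CPM in controls and at 36.2, 52.1 and 43.5 CPM on high iron. As for Fga, the groups did not overlap. Means were 2.25-, 2.20- and 2.04-fold higher for Fga, Fgb and Fgg. Their log2 fold changes were 1.17 ± 0.26, 1.16 ± 0.28 and 1.07 ± 0.30 (SE), with adjusted p of 0.073, 0.098 and 0.16 by limma. EdgeR gave 0.10, 0.14 and 0.23 and DESeq2 gave 0.0025, 0.0057 and 0.029, so the call depends on the tool. Without control_iron 1 the log2 fold changes were 0.87, 0.92 and 0.71, and limma's adjusted p were 0.053, 0.11 and 0.11. Without control_iron 2, limma called Fgb (log2 fold change 1.47, adjusted p = 0.035). The 3 genes share a locus and a product and are not independent evidence of each other. A long non-coding gene on the other strand, Gm30097, covers 5.49% of the exons of Fgg, and the library kit does not mark strand.

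The other 3 clotting genes differed among themselves. Kininogen (Kng1), the source of bradykinin, stood at 3.17, 12.4 and 6.38 CPM in controls and at 12.2, 15.9 and 17.1 CPM on high iron. Only control_iron 2 reached the high-iron range, and by a small margin (log2 fold change 1.10 ± 0.37, adjusted p = 0.27 by limma). Vitronectin (Vtn) had a log2 fold change of 0.54. Kng1 and Vtn had values of 0.68 and 0.22 without control_iron 1. Prothrombin (F2) stood at 33.6, 45.6 and 31.8 CPM in controls and at 30.1, 40.1 and 40.6 CPM on high iron. Its highest library was only 1.51 times its lowest, where the other 35 genes spanned 2.89-fold (Apob) to 21.5-fold (Hamp), and its log2 fold change was 0.00 ± 0.19 (-0.06 without control_iron 1). F2 also kept a level of 33.6 CPM in control_iron 1, the library that was low for the others.

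The protease inhibitors were led per length by Serpina1c, one of the mouse alpha-1-antitrypsin genes, at 49.6 RPKM. Serpina1c stood at 26.5, 101 and 50.6 CPM in controls and at 41.2, 107 and 76.0 CPM on high iron. Serpina1b, another alpha-1-antitrypsin gene, stood at 27.4, 119 and 39.3 CPM in controls and at 54.5, 132 and 94.5 CPM on high iron. In both, control_iron 2 lay near the top and the groups overlapped.

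Reads of Serpina1a, Serpina1b and Serpina1c are uncertain, since stretches of at least 95% identity to one another or to Serpina1d and Serpina1e cover 75.6% to 100% of their transcripts. An antisense gene also covers 31.5% of the exons of Serpina1c. Serpina3k, a relative of antichymotrypsin, stood at 21.1, 48.7 and 48.1 CPM in controls and at 39.5, 75.6 and 69.3 CPM on high iron. Itih4, an inter-alpha-inhibitor heavy chain, stood at 1.77, 7.85 and 5.52 CPM in controls and at 7.39, 9.73 and 9.15 CPM on high iron. Over the 7 inhibitors, with Serpina1a, fetuin (Ahsg) and the bikunin precursor (Ambp), log2 fold changes ran from 0.43 to 0.84 and adjusted p from 0.42 to 0.71 by limma. Without control_iron 1 they ran from -0.04 (Serpina1c) to 0.36 (Serpina1b), with a median of 0.17.

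Major urinary proteins, which carry pheromones, gave the one tested gene with a fold change below 0. Mup3 stood at 21.1, 82.6 and 76.3 CPM in controls and at 27.2, 55.1 and 65.5 CPM on high iron (log2 fold change -0.15 ± 0.49). The 2 highest libraries were controls, and so was the lowest. Without control_iron 1 the log2 fold change was -0.77. Mup20 was read 3 to 17 times per library, at 0.154 to 0.968 CPM, and its reads may be shared with the pseudogene Mup-ps19.

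Hamp had the widest span of the set and, on log2(CPM + 1) with all libraries, the largest fold change. By edgeR and DESeq2 Cyp3a11 was larger (1.53 and 1.54, against 1.43 and 1.44), and without control_iron 1 Tat, Fgb and Fga were. It lies at chr7:30942368-30944032 (GRCm38, minus strand). Hamp stood at 1.14, 11.2 and 9.28 CPM in controls and at 11, 24.5 and 23.3 CPM on high iron, from 22 to 416 reads. The groups overlapped narrowly, with high_iron 1 just under control_iron 2. Means were 7.21 ± 5.34 and 19.6 ± 7.49 CPM (SD, n = 3 each). The log2 fold change was 1.60 ± 0.59 (SE), with an adjusted p of 0.32 by limma, 0.41 by edgeR and 0.52 by DESeq2. Without control_iron 1 the log2 fold change was 0.80, with an adjusted p of 0.19 by limma. The paralog Hamp2 stayed at 0.104 to 1.07 CPM and was not tested.

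Of the 7 enzymes, Cyp2e1, a cytochrome that oxidises ethanol, was the most abundant per length at 40.5 RPKM. Cyp2e1 stood at 27.6, 111 and 27.0 CPM in controls and at 53.6, 135 and 87.4 CPM on high iron. Tyrosine aminotransferase (Tat), the first enzyme of tyrosine breakdown, stood at 21.4, 65.1 and 17.8 CPM in controls and at 46.0, 99.7 and 94.5 CPM on high iron. In both genes only control_iron 2 reached into the high-iron range. The log2 fold change of Tat was 1.34 ± 0.45 (adjusted p = 0.26 by limma), and without control_iron 2 it was 1.91, with an adjusted p of 0.045. Without control_iron 1 it was 1.12 for Tat and 0.64 for Cyp2e1, which had 0.96 with all libraries.

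Cyp3a11, a drug-metabolising cytochrome, was low and stood at 0.519, 1.44 and 1.31 CPM in controls and at 2.00, 3.95 and 3.61 CPM on high iron. The groups did not overlap, but the values rest on 10 to 67 reads (log2 fold change 1.00 ± 0.30, adjusted p = 0.19 by limma). The added 1 CPM compresses so low a gene: the log2 fold change was 1.52 with a pseudocount of 0.1, 1.53 by edgeR and 1.54 by DESeq2, with no call. Without control_iron 1 it was 0.79 on log2(CPM + 1). The other enzymes were Cps1 and Ass1 of the urea cycle and Pck1 and G6pc of gluconeogenesis, with log2 fold changes of 0.71, 0.57, 0.58 and 0.11. Without control_iron 1 these were 0.05, 0.16, 0.30 and -0.38. Ass1 shares 73.1% of its transcript with the near-copy Gm5424, so its level is uncertain.

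The sums of the enzymes and of the apolipoproteins differed in their order of libraries. Enzymes summed to 79.6, 306 and 98.1 CPM in controls and to 161, 375 and 278 CPM on high iron. In control_iron 3 they were therefore little above control_iron 1, whereas the apolipoproteins of control_iron 3 stood at 491 against 114 CPM. Levels in control_iron 3 were 0.243, 0.245 and 0.273 of those in control_iron 2 for Cyp2e1, Pck1 and Tat. The corresponding ratios were 0.751, 0.818 and 0.779 for Apoa2, Apoc1 and Apoc3 and 0.636 for Alb. The roles overlapped, however: among the other enzymes the ratio was 0.443 (Ass1) to 0.916 (G6pc), and among the other apolipoproteins 0.52 (Apoh) to 1.30 (Apob). These genes were picked after their values were seen.

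The transcripts moved together across the libraries. Each of the other 35 genes had a positive correlation with Alb on log2(CPM + 1) over the 6 libraries, which share the diet contrast. Pearson's r had a median of 0.90 and ran from 0.29 (Mup20) to 0.98 (Rbp4). It was above 0.8 for 25 of the 35, whereas 4.44% of all genes tested had an r with Alb above 0.8 and the median over all was -0.02. By exact two-sided permutation over all pairings, 17 of the 35 passed after Benjamini-Hochberg adjustment for Pearson's r and 0 for Spearman's rho. The smallest permutation p was 0.0014, for Ahsg (r = 0.95, rho = 1.00, adjusted p = 0.028 and 0.097). At an unadjusted p under 0.05 there were 26 for Pearson's r.

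Control_iron 1 and 2 were the libraries farthest from the median of Alb. Without these 2, only control_iron 3 and high_iron 1 to 3 remain, few libraries for a correlation. The median r was then 0.89, with 34 of 35 positive and 21 above 0.8, and the exception was Hpx, at -0.22. Ttr (0.91 to 0.34), Apoc1 (0.93 to 0.36), Apoa2 (0.92 to 0.46), Apob (0.75 to 0.19), Mup3 (0.78 to 0.23) and G6pc (0.67 to 0.36) also lost much of their relation. For these genes it therefore rests on the libraries left out. Apoc3, Hp and Trf fell to 0.60, 0.54 and 0.53. F2 went from 0.58 to 0.95. With 5 libraries the number that passed was 14 without control_iron 2, 13 without control_iron 3 and 0 without any one of the other 4.

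Dividing by Alb of the same library removed most of the spread between libraries. The SD over libraries of the log2 ratio to Alb was smaller than that of the log2 level for 33 of the 35 genes, with medians of 0.39 and 0.87. In all, 6 genes had higher ratios in every high_iron library than in any control: Hamp, Cyp3a11, Kng1, Fga, Fgg and Itih4. These are 6 of the 34 genes tested besides Alb, where 0.957% of all genes gave such a ratio. Most of all genes did not follow Alb between libraries, and the low Alb of control_iron 1 (69.9 CPM) raises their ratio there. A higher ratio in every high_iron library was thus unlikely for them, so the 2 shares cannot be compared. Mup3 had a lower ratio in every high_iron library, as did 2.66% of all genes, a share with the same limit.

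Hamp was 1.64%, 4.02% and 5.25% of Alb in control_iron 1 to 3 and 5.96%, 9.53% and 9.76% in high_iron 1 to 3. The groups did not overlap, and the difference was 1.33 on the log2 scale, or 2.52-fold. The exact two-sided permutation test over samples gave p = 0.10, the smallest that 3 against 3 can give, or 0.40 after adjustment over the 4 ratios tested. Against Apoa1 in place of Alb the log2 difference was 1.38, and against the sum of the other genes it was 1.37. Without control_iron 1 the difference was 0.84. The other 3 tested ratios were those of Trf, Hp and Hpx, with log2 differences of -0.06, 0.21 and 0.03 and exact permutation p of 0.90, 0.50 and 1.00.

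Fga was 11.5%, 6.31% and 8.12% of Alb in controls and 14.8%, 12.8% and 12.3% on high iron. Fgg was 16.7%, 10.7% and 13.1% of Alb in controls and 19.7%, 20.2% and 18.2% on high iron. Kng1 was 4.54%, 4.46% and 3.61% of Alb in controls and 6.60%, 6.18% and 7.15% on high iron. Compared with Alb, each was thus higher in all high-iron libraries, by 1.58-, 1.46- and 1.59-fold for Fga, Fgg and Kng1. Fgb overlapped, since control_iron 1 (24.1%) exceeded high_iron 3 (18.4%). Cyp3a11 rested on few reads and was 2.07-fold higher relative to Alb, and Itih4 was 1.38-fold higher. Mup3 was 30.2%, 29.7% and 43.2% of Alb in controls and 14.8%, 21.4% and 27.4% on high iron. Apart from Hamp, these ratios were set against Alb after levels had been seen and carry no test.

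**Figure D3:**
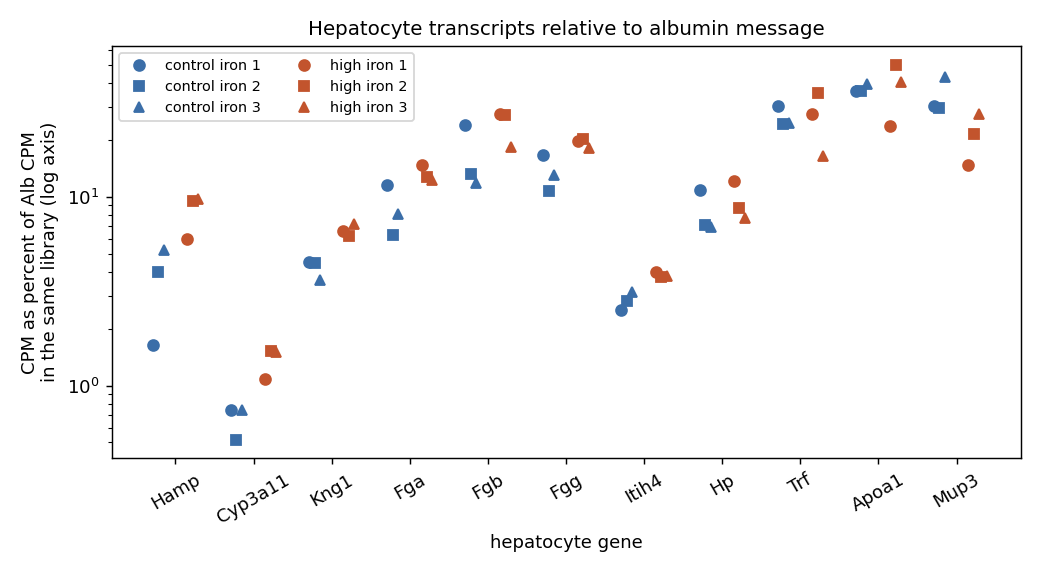
CPM of 11 genes as percent of the Alb CPM of the same library, on a log axis, with control_iron in blue and high_iron in red and the marker shape giving the replicate. Hamp runs from 1.64% to 5.25% in the controls and from 5.96% to 9.76% on high iron, while the 2 groups interleave for Hp, Trf and Apoa1.

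Other hepatocyte genes, from lists drawn up for this comparison, showed the same dependence on the library. Of 45 tested genes for other secreted proteins, 43 had a log2 fold change above 0, with a median of 0.43, and 41 were lowest in control_iron 1. Of 62 tested genes of metabolism, 56 were above 0, with a median of 0.36, and 47 were lowest in control_iron 1. Without control_iron 1 the medians were 0.07 and -0.01, with 27 and 28 above 0.

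Limma called 1 of these 107 genes, Hc, the gene for complement C5. Such a count is near the background, since limma called 0.832% of all genes higher. Hc stood at 74.1, 94.1 and 78.4 CPM in controls and at 123, 197 and 186 CPM on high iron, with no overlap. Control_iron 1 was thus close to control_iron 3 for Hc, whereas Alb stood at 69.9 and 177 CPM in these 2 libraries. The adjusted p of Hc was 0.044 by limma, 0.051 by edgeR and 9.3e-05 by DESeq2. It was not called by limma without control_iron 1, 2 or 3 or without high_iron 2 or 3 (adjusted p of 0.055, 0.071, 0.12, 0.19 and 0.25).

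The acute phase list, to which the fibrinogen genes belong by function, had 0 of 9 tested genes past limma's test, 1 with an unadjusted p under 0.05, and 0 past edgeR or DESeq2. Of the 9, 7 had a log2 fold change above 0, with a median of 0.37. Fgl1, a fibrinogen-like hepatocyte protein, was that 1 gene (log2 fold change 0.84, adjusted p = 0.32 by limma). It stood at 0, 0.836 and 0.513 CPM in controls and at 2.10, 1.00 and 1.54 CPM on high iron. Fgl1 passed the filter only through the high_iron libraries, so the lack of overlap between its groups was fixed by the filter. Saa1, a serum amyloid A gene that rises strongly in inflammation, stood at 0.456 to 1.30 CPM in controls and 1.08 to 1.69 CPM on high iron. Orm1, which encodes an acid glycoprotein of the acute phase, stood at 1.19 to 5.85 and 3.61 to 6.01 CPM.

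Hepatocyte transcription factors stood at 28.2 CPM or less, and 0 of 8 tested passed limma, edgeR or DESeq2, with 0 at an unadjusted p under 0.05. Cebpa, the highest of the list, stood at 18.4, 23.3 and 22.7 CPM in controls and at 20.7, 28.2 and 26.9 CPM on high iron. Hnf4a, a master regulator of hepatocyte genes, stood at 5.25, 15.0 and 4.95 CPM in controls and at 9.44, 16.6 and 18.2 CPM on high iron. Of the genes that set hepcidin output, Tfr2, a transferrin receptor that senses iron, stood at 1.09 to 3.69 CPM and Tmprss6, a protease that restrains the signal, at 0.623 to 9.85 CPM. Both were lowest in control_iron 1, whereas in the same list Hfe was lowest in control_iron 3 and Bmper highest in control_iron 1. Of the 5 tested genes of that list, 0 passed in limma, edgeR or DESeq2, with 0 at an unadjusted p under 0.05.

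Markers of other cells also varied between the libraries. The summed level of 16 stellate cell and fibroblast markers was 297, 978 and 492 CPM in controls and 464, 1090 and 828 CPM on high iron. Ecm1 was the largest part of each sum, at 232, 472 and 255 CPM in controls and 369, 662 and 558 CPM on high iron. Control_iron 1 was lowest and control_iron 2 and high_iron 2 highest in this list too, and 11 of its 14 tested genes were lowest in control_iron 1. Lrat, which stores retinol in stellate cells, had 0.468 CPM in control_iron 1 but 10.3 CPM in control_iron 2.

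Macrophage markers followed the diet instead. Their sum over 16 genes was 91.5, 197 and 113 CPM in controls and 539, 279.6 and 383 CPM on high iron. All 15 tested had a log2 fold change above 0, with a median of 1.40. For C1qa, C1qb and Folr2 the groups overlapped. Limma called 3 of the 15, Clec4f, Marco and Csf1r, where it called 0.832% of all genes higher. With any 1 of the 6 libraries left out it called 0 to 6. High_iron 1 was the highest library for this sum and the lowest high_iron library for the hepatocyte genes (1216 CPM).

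Red cell genes summed to 1164, 3795 and 1468 CPM in controls and 1249, 4769.9 and 835 CPM on high iron. Platelet genes summed to 25.4 to 44.7 CPM, lymphocyte genes to 3.85 to 25.2 CPM and bile duct genes to 0.371 to 6.21 CPM. Each of the 4 lymphocyte genes tested, of 12 listed, was higher in all high_iron libraries, as were 9.46% of all genes. Among the controls, Ms4a1 reached 1 CPM in none (0.279 to 0.854 CPM) and Cd79b in control_iron 3 alone (1.37 CPM). For these genes the filter itself favoured that order. Limma called 1 of the 4, Ighm (adjusted p = 0.045), where it called 0.832% of all genes higher. Ighm was not called when any 1 library was left out. The part of these cells in the hepatocyte transcripts was not tested.

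**Figure D4:**
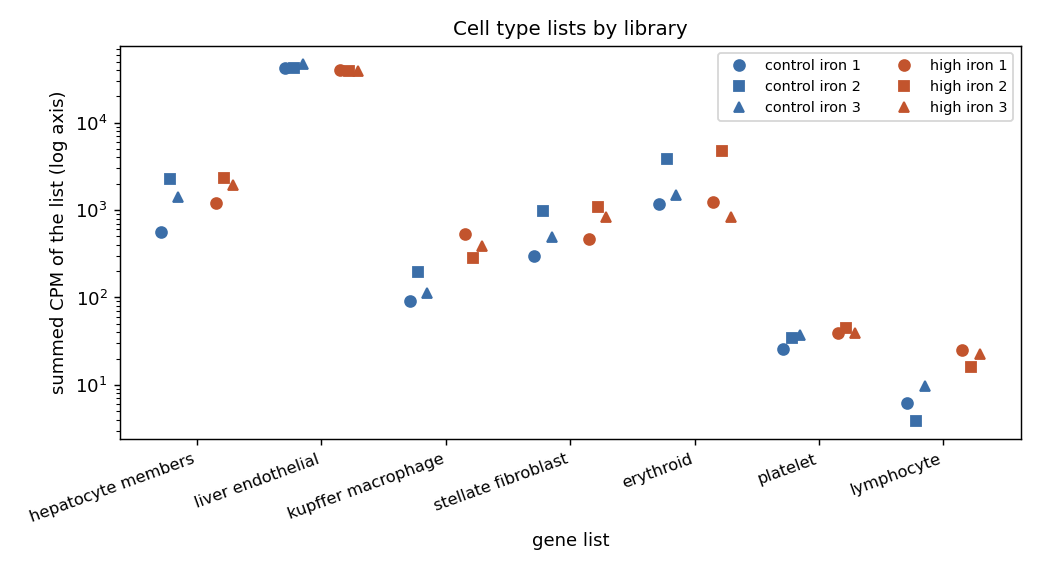
Summed CPM of the 36 hepatocyte genes and of marker lists of 6 other cell types in each library, on a log axis, with control_iron in blue and high_iron in red and the marker shape giving the replicate. Hepatocyte and stellate sums are lowest in control_iron 1 and highest in high_iron 2, endothelial sums differ little (39332 to 47132 CPM), and macrophage sums separate the diets.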

How the data were processed

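RNA sequencing of sorted liver endothelial cells gave 6 libraries, 3 per diet. RNA came from a column kit for small samples and went into an unstranded low-input kit, per the labels' protocols. STAR, HTSeq, edgeR and mm10 are named in the submitters' processing notes, without versions or roles. The authors deposited a signal named CPM, which is reads over a scaled library size, and RPKM, which equals CPM times 1000 over gene length. All 114253 values above 0 were whole reads within 0.001 (100%), so counts could be recovered from the deposited table. Read totals per library were 12963510 to 21663543, and the floor of 3 reads covers counting error only. Chi-square tests between libraries of the same diet gave 16 to 76.2 per degree of freedom, so none was the same library sequenced again. Separate libraries made from the same RNA could also exceed counting error, so the test cannot exclude these.

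The main test was limma 3.58.1 (R 4.3.3) on log2(CPM + 1) with a variance trend and diet as the sole term. It ran on 12980 genes with at least 1 CPM in 3 libraries, two-sided, with Benjamini-Hochberg adjustment over all of them and a threshold of 0.05. Limma's p-values set the diet difference against the spread between these libraries, moderated over all genes tested. EdgeR 4.0.16 and DESeq2 1.42.0 on the recovered reads were alternatives. Other alternatives were pseudocounts of 0.1 and 0.5, no filter, 5 CPM in 3 libraries, plain library size, the replicate number as a block, and leaving out each library. The fit was also run on simulated reads with known changes. Genes varied independently there, so that run does not cover a library in which many genes shift together. No batch or date is given in the sources used here.

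The 36 genes and the 12 further lists (231 of 234 listed genes found, 4 by identifier) were chosen with earlier results of these data known. All 36 genes are accounted for. Values per library are given for the leader of each role by RPKM, for genes whose groups did not overlap or that passed in any fit, for Hamp, Trf, Hp and Hpx, and for the largest and smallest fold change. Hc and Ighm are named as called genes, and further list genes were picked as familiar markers with values seen. GENCODE M21 on GRCm38 gave positions and overlaps, BLAST 2.17.0 gave near copies (minimum identity 95%, minimum share of the transcript 50%), and RefSeq gave promoters.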

Additional observations from a re-analysis of the deposited data

How the results depend on the processing

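Cyp3a11 and Mup20 rest on few reads; no test of depth was made. Of 489 refits of single genes, 447 kept their direction and side of the threshold, 26 turned direction and 16 became calls; 10 of the 26 came from leaving out control_iron 1. The number of genes changed among all was 133, 34 with no filter, 424 by DESeq2 and 26 to 173 with 1 library left out. Of the 35 hepatocyte genes, DESeq2 called 3, and 0 to 2 were called with 1 library left out. Correlations with Alb that passed numbered 0 to 14 with 1 library left out. The cause was not tested.

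Whether replicate numbers pair the libraries cannot be settled here. Deviations of same-numbered libraries correlated at 0.13, 0.32 and 0.06, and those of other pairs at -0.39 to 0.20. In both diets the summed level of the hepatocyte genes rose in the order of replicates 1, 3 and 2. It was 560.3, 1395 and 2264 CPM in controls and 1216, 1935 and 2336 CPM on high iron. With the number as a block, limma called 402 of all 12980 genes tested (3.1%) and 11 of the 35 hepatocyte genes. These 11 were Hamp (adjusted p = 0.0014 by limma), Fgb, Tat, Fga, Fgg, Cyp2e1, Kng1, Gc, Serpina1b, Cyp3a11 and Serpina3k. Not every library correlated best with its own number.

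By edgeR and DESeq2 the log2 fold change turned to -0.15 and -0.14 for Ttr, -0.12 and -0.11 for Apoa2, -0.08 and -0.07 for Apob, and -0.08 and -0.06 for Apoc1. With 1 library left out it ran from -0.66 to 0.65 for Ttr, -0.14 to 1.22 for Rbp4, -0.04 to 0.96 for Apoa1, -0.65 to 0.73 for Apoa2, -0.39 to 0.31 for Apob, -0.56 to 0.71 for Apoc1, -0.38 to 1.01 for Apoc3, -0.09 to 0.75 for Apoh, -0.04 to 0.91 for Serpina1c, -0.77 to 0.22 for Mup3 and -0.46 to 0.59 for G6pc. F2, at 0.00 with all libraries, was not counted as turning; it ran from -0.09 to 0.16.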
